A study of Mus musculus with 6 samples.

Results

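Calcium signalling through calmodulin was described by 10 of its genes in the neocortex of newborn mice with Tcf4 deleted in the Emx1 lineage. They comprise 8 genes named as calmodulin-dependent (CaM) kinases, Camk1d, Camk4, Camk2a, Camk2b, Camk2d, Camk2g, Camkk2 and Camkv, and 2 catalytic subunits of the phosphatase calcineurin, Ppp3ca and Ppp3cb. They were taken by gene symbol from a table of 15703 genes, and all 10 were found, each as a single entry. They were chosen by name, but selected on the difference in FPKM between the genotypes in these same libraries, which was known, so values of the 10 genes are given as a description. Where they are said to be called, this only places them in the fit over all genes and is no independent test of them. RNA sequencing was run on 3 conditional knockout (cKO) animals, with floxed Tcf4 on both alleles and a single copy of Emx1-Cre, and on 3 animals labelled wild type (WT). All 6 were C57BL/6 mice at postnatal day 0. Emx1-Cre recombines in progenitors of cortical excitatory neurons and of glia of the dorsal forebrain, so interneurons, microglia and vessel cells of the same tissue keep the gene. The labels do not say whether WT animals carried the floxed allele or Cre.

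When calcium enters a neuron it binds calmodulin, and loaded calmodulin switches on kinases and a phosphatase with partly opposing actions. CaMKII forms large holoenzymes that stay active after autophosphorylation and act at synapses, while CaMKI and CaMKIV are single-chain enzymes that need phosphorylation by the CaM kinase kinases for full activity. CaMKI acts in the cytoplasm, including growth cones, and CaMKIV in the nucleus on transcription factors such as CREB. Calcineurin pairs a catalytic A subunit with the calcium-binding B subunit and dephosphorylates, among others, NFAT factors. In rodent forebrain the alpha subunit of CaMKII is known to accumulate after birth, later than the beta subunit.

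Values are FPKM, fragment counts scaled by exon length and by a size for each library, a scale on which levels of different genes can be compared. The log2 changes are cKO minus WT on log2(FPKM + 1), which understates the change of low genes, and a gene is called where limma's adjusted p over 15703 genes is under 0.05. Reads summed over listed genes, recovered from the FPKM steps and approximate, numbered 25.5 to 26.7 M in cKO libraries and 25.3 to 28.8 M in WT libraries. These sums exceed the library sizes fitted to the steps, 23.2 to 24.3 M in cKO and 23.4 to 26.1 M in WT libraries. The fitted sizes need not be sequencing depths. Tcf4 itself was at 56.5, 60.6 and 55.3 FPKM in cKO libraries and 71.2, 75.6 and 75.3 FPKM in WT libraries, a value over all its exons and all cells. By Xist and Y-linked genes, each group held 1 male and 2 females. The neuron markers summed to 1845 to 1892 FPKM in cKO libraries and 1878 to 1921 FPKM in WT libraries, with none at 0. Tubb3, the most abundant of them, weighs most in this sum.

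In the cKO neocortex 6 of the 10 genes were called lower, none was called higher and 4 were not called. Camk1d, a CaMKI isoform, was 3.1-fold lower, Camk2a 1.65-fold, Camk4 1.57-fold and Ppp3ca 1.43-fold lower in cKO, by ratio of mean FPKM. Camk2g and Camk2b were 1.21-fold and 1.19-fold lower. Of all genes tested, 8.59% were called lower and 7.22% higher. In 8 of the 10 genes every cKO library lay below every WT library, which held for 18.7% of all genes. Whole tissue was sequenced, so fewer cells of a type and less RNA per cell cannot be told apart. The median log2 change was −0.26 over the 10 genes and 0.0017 over all genes. Because the 10 were picked with this contrast in view, nothing is read from these counts or from the single calls. The plot of values by library shows each gene on its own scale.

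**Figure D1:**
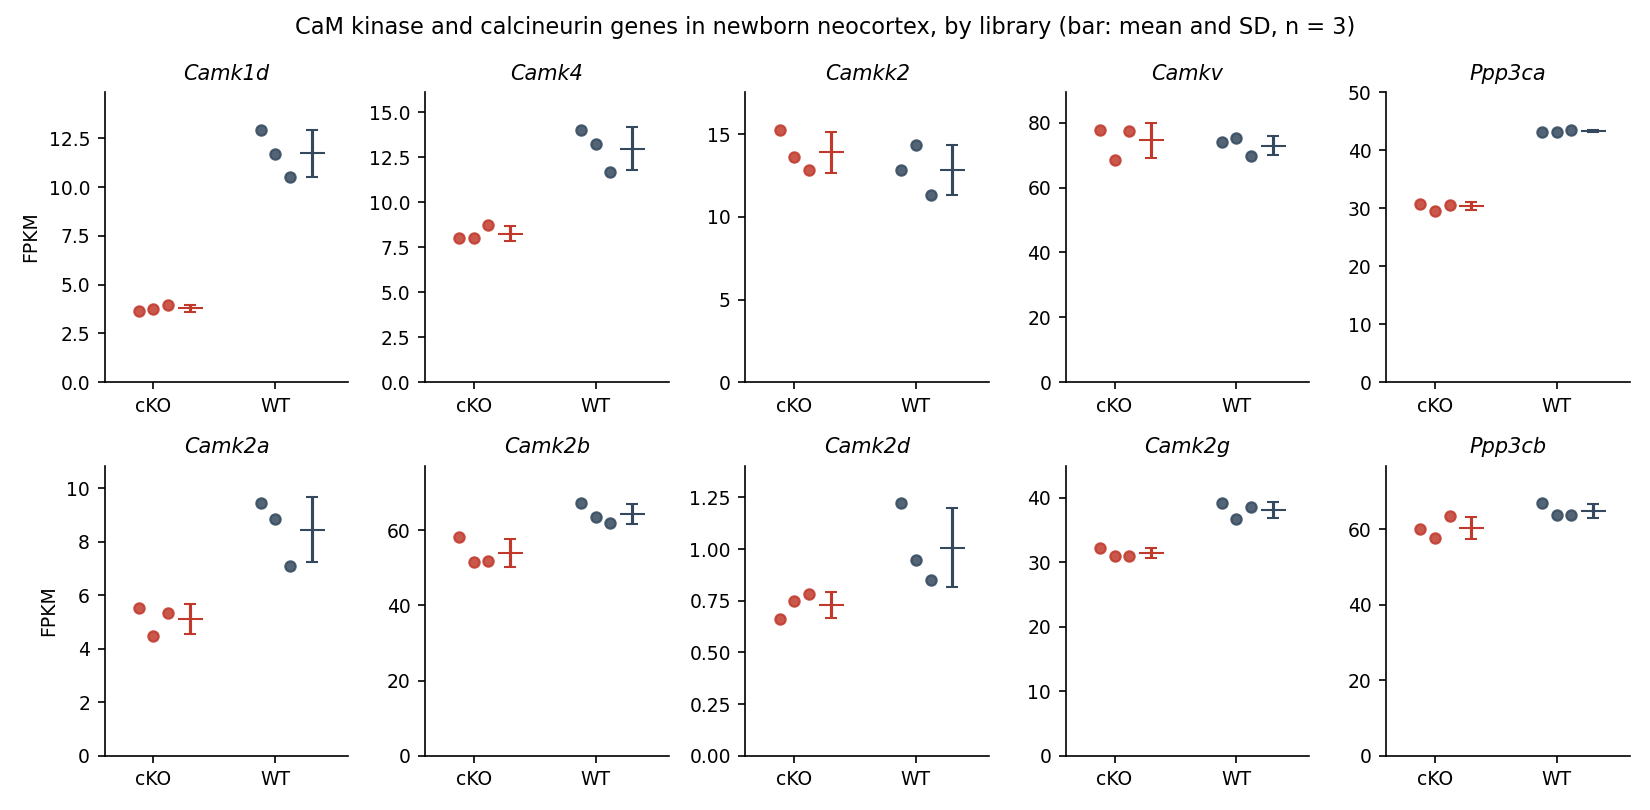
Level in FPKM (vertical axes, from 0) of the 10 genes in the 3 cKO (red, left) and 3 WT (dark, right) libraries, with points for libraries and a bar for the mean and SD. The groups are apart in 8 genes and overlap in Camkk2 and Camkv, and the widest relative gap is that of Camk1d, at 3.63 to 3.98 FPKM in cKO and 10.5 to 12.9 FPKM in WT libraries.

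Tcf4 belongs to the basic helix-loop-helix factors, which bind E-boxes of the form CANNTG, and E-proteins often prefer the variants CAGGTG and its complement CACCTG. RefSeq promoter windows on build GRCm38.p6, the assembly of mm10, run from 250 bases before to 50 after an annotated start. Those of 6 of the 10 genes were searched, in 7 windows. Windows of Camk4, Camk2a, Camk2g and Ppp3ca, all called lower, were not searched, so E-boxes there were not assessed. Of the genes called lower, windows of Camk1d and Camk2b alone were thus searched. The windows of Camk1d are shown because that gene differed most, that of Camk2b because it was called lower and Camkv because it was not called. Sequences run 5′ to 3′ on the gene's strand, with every CANNTG in capitals. The Camk1d windows are chr2:5714713-5715012 and chr2:5675997-5676296 on the minus strand, that of Camk2b is chr11:6065699-6065998 on the minus strand and that of Camkv is chr9:107935670-107935969 on the plus strand.
Camk1d, first start: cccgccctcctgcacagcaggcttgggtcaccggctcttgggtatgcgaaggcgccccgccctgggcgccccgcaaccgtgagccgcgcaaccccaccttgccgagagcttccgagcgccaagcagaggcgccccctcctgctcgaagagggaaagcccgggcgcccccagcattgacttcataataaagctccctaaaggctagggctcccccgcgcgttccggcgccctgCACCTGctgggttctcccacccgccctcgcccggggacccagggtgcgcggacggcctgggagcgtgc
Camk1d, second start: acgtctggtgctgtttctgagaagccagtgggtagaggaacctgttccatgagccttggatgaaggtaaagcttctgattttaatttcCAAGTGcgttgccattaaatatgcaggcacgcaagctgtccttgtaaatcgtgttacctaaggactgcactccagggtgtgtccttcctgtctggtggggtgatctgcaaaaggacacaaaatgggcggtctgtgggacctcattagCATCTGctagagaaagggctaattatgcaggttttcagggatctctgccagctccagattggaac
Camk2b: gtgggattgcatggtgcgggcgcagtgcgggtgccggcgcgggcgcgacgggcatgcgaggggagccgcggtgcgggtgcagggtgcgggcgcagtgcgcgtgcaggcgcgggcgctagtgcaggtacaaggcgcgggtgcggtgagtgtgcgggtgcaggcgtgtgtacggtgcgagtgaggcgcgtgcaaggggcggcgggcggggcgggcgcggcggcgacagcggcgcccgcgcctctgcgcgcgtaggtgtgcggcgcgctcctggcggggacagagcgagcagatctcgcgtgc
Camkv: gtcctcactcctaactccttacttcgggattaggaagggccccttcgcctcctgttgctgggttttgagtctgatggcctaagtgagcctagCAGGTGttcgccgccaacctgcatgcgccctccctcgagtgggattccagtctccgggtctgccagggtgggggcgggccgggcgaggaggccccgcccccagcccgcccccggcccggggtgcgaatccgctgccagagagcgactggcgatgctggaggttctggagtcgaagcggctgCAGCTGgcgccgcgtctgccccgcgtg

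The first Camk1d window held a single E-box, CACCTG, starting 18 bases before the start site. The second held CAAGTG and CATCTG, at 162 and 15 bases before its start. Positions are counted from the RefSeq starts. The first Camk1d window, from 5714713 on, lies wholly upstream of the GENCODE M21 gene, which on the minus strand begins at 5714515. Camkv, which was not called, held CAGGTG 158 bases before and CAGCTG 24 bases after its start, and Ppp3cb held CACCTG 101 bases before its start. No CANNTG was found in the windows of Camk2b, Camk2d and Camkk2. Both strands were searched, and CAGGTG and CACCTG are themselves among the CANNTG matches. Over 32851 RefSeq promoter windows, 72.3% held CANNTG and 20.2% held CAGGTG or CACCTG, against 4 and 3 of the 7 windows here. A match is only a match of letters and was not linked to binding in these data.

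Camk1d (ENSMUSG00000039145, mm10 chromosome 2, 5293457 to 5714515, minus strand), which encodes CaMKI delta, was at 3.63, 3.73 and 3.98 FPKM in cKO libraries and at 12.9, 11.7 and 10.5 FPKM in WT libraries. The lowest WT library was above the highest cKO library by a wide margin. Its mean was 3.78 ± 0.18 FPKM in cKO and 11.7 ± 1.20 FPKM in WT (SD, n = 3 each), and its log2 change was −1.41 (SE 0.084). Behind these values were about 638 to 686 reads in cKO and 1832 to 2505 reads in WT libraries. In level it stood at percentile 41.0 of all listed genes in cKO and at percentile 70.3 in WT.

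The other genes of the CaMKI group were not called. Pnck, which encodes CaMKI beta, was at 29.9 ± 2.67 FPKM in cKO and 29.7 ± 1.77 FPKM in WT (limma adjusted p = 0.969). Camk1, which encodes CaMKI alpha, was at 8.70 ± 0.36 FPKM in cKO and 8.46 ± 0.49 FPKM in WT (limma adjusted p = 0.756). Part of the Camk1 exons, 232 of 5975 bases, is shared with Ogg1 on the other strand. Camk1g, which encodes CaMKI gamma, was at 14.5, 12.8 and 11.7 FPKM in cKO and 16.8, 15.8 and 14.6 FPKM in WT libraries, with groups that nearly touch (limma adjusted p = 0.0682). Camk1d made up 6.04, 7.07 and 7.46% of the summed FPKM of these 4 genes in cKO libraries and 19.1, 18.4 and 16.1% in WT libraries, so its part of the group was smaller in every cKO library. Whether Camk1d differed from the other genes of its group was not tested.

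Camk4 (ENSMUSG00000038128, chromosome 18, 32934931 to 33191228, plus strand), the nuclear kinase CaMKIV, was at 8.001, 8.021 and 8.723 FPKM in cKO libraries and 14.0, 13.2 and 11.7 FPKM in WT libraries. The groups did not overlap, and the cKO libraries lay closer together than the WT libraries, with coefficients of variation of 4.99% in cKO and 9.21% in WT. The log2 change was −0.59 (SE 0.080). Of its 3259 exon bases, 72 are shared with a gene on the opposite strand, 2310026I22Rik, and reads there cannot be told apart without strand.

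Camkk2 (ENSMUSG00000029471, chromosome 5, 122731170 to 122779409, minus strand), the kinase that phosphorylates CaMKI and CaMKIV as well as AMPK, was at 15.3, 13.6 and 12.8 FPKM in cKO libraries and 12.9, 14.3 and 11.3 FPKM in WT libraries. The groups overlapped, and the log2 change was 0.11 (SE 0.094), not called. Its relative Camkk1 was at 8.57 ± 0.54 FPKM in cKO and 7.97 ± 0.29 FPKM in WT (limma adjusted p = 0.403).

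Camk2a (ENSMUSG00000024617, chromosome 18, 60925618 to 60988152, plus strand), the alpha subunit of CaMKII, was at 5.54, 4.48 and 5.33 FPKM in cKO libraries and 9.44, 8.86 and 7.08 FPKM in WT libraries. All cKO values lay below all WT values, although the WT libraries varied by 14.5% of their mean. The log2 change was −0.62 (SE 0.108). Camk2b (ENSMUSG00000057897, chromosome 11, 5969644 to 6066362, minus strand), the beta subunit that binds actin, was the most abundant CaMKII gene, at 58.2, 51.6 and 51.9 FPKM in cKO libraries and 67.2, 63.6 and 62.0 FPKM in WT libraries. Its log2 change was −0.25 (SE 0.068). The call of Camk2b was lost without cKO 2 (log2 change −0.22), cKO 3 (−0.22), WT 1 (−0.22) or WT 2 (−0.26), and, at the same log2 change, with sex as a term or without the mean-variance trend.

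Camk2g (ENSMUSG00000021820, chromosome 14, 20734875 to 20794088, minus strand), the gamma subunit, was at 32.3, 31.0 and 31.0 FPKM in cKO libraries and 39.2, 36.7 and 38.5 FPKM in WT libraries. The spread within each group was small beside the gap between them, and the log2 change was −0.27 (SE 0.059). Without cKO 2 (log2 change −0.26) or WT 1 (−0.25) Camk2g was not called. Camk2d (ENSMUSG00000053819, chromosome 3, 126596302 to 126846326, plus strand), the delta subunit, was the lowest of the 10 genes, at 0.659, 0.748 and 0.781 FPKM in cKO libraries and 1.221, 0.946 and 0.852 FPKM in WT libraries. The groups were apart but close, and the log2 change of −0.21 (SE 0.086) was not called. A model on recovered reads, with no added FPKM, put it at −0.45 and called it lower.

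Summed over the 4 CaMKII genes, the level was 96.7, 87.8 and 89.0 FPKM in cKO libraries and 117, 110 and 108 FPKM in WT libraries. The cKO sum was 0.815 of the WT sum, with means of 91.2 ± 4.83 FPKM in cKO and 111.9 ± 4.54 FPKM in WT (SD, n = 3 each). Camk2b supplied 59.1 ± 0.98% of the sum in cKO and 57.5 ± 0.29% in WT, and Camk2g 33.4 to 35.3% in cKO and 33.4 to 35.5% in WT libraries. Camk2a supplied 5.72, 5.10 and 5.99% in cKO libraries and 8.07, 8.04 and 6.53% in WT libraries, with no overlap, and Camk2d under 1.1% in every library. Beta and gamma together made up most of the sum in both genotypes. The stacked plot shows these sums beside those of calcineurin.

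**Figure D2:**
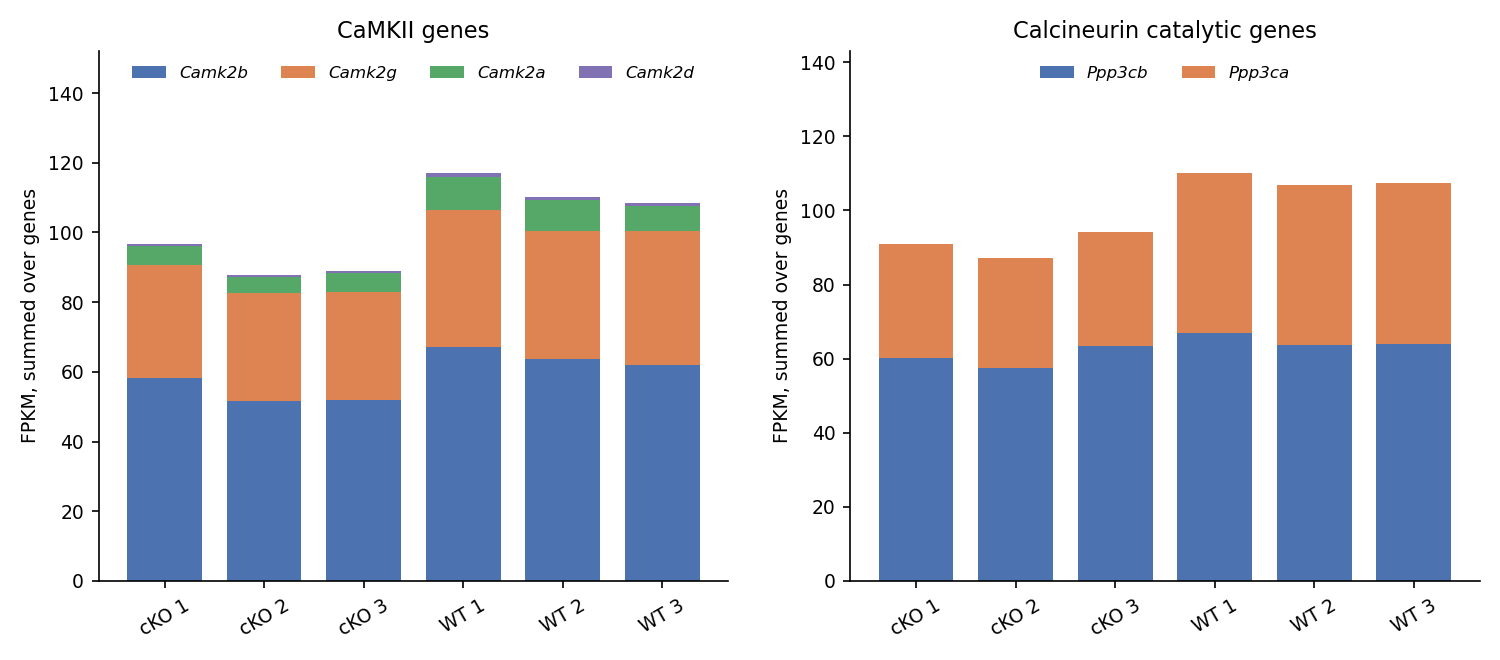
Summed FPKM (vertical axes) of the 4 CaMKII genes (left) and of the 2 calcineurin catalytic genes (right) in each library, cKO then WT, stacked by gene. CaMKII bars reach 87.8 to 96.7 FPKM in cKO and 108 to 117 FPKM in WT, and in the calcineurin bars the Ppp3ca part is 29.6 to 30.8 FPKM in cKO and 43.2 to 43.5 FPKM in WT.

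Camkv (ENSMUSG00000032936, chromosome 9, 107935674 to 107949691, plus strand) encodes a vesicle-associated pseudokinase that binds calmodulin but lacks kinase activity and is known for maintaining dendritic spines. It was the most abundant of the 10 genes, at 77.8, 68.4 and 77.5 FPKM in cKO libraries and 73.9, 75.2 and 69.6 FPKM in WT libraries. The groups overlapped and the log2 change was 0.030 (SE 0.069), not called.

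Ppp3ca (ENSMUSG00000028161, chromosome 3, 136670124 to 136937727, plus strand), the alpha catalytic subunit of calcineurin, was at 30.8, 29.6 and 30.7 FPKM in cKO libraries and 43.2, 43.2 and 43.5 FPKM in WT libraries. It varied little within a group, by 2.21% of the mean in cKO and 0.481% in WT, and the groups were far apart. Its log2 change was −0.50 (SE 0.056), on about 7100 to 7270 reads in cKO and 10132 to 11247 reads in WT libraries. Ppp3cb (ENSMUSG00000021816, chromosome 14, 20499364 to 20546573, minus strand), the beta catalytic subunit, was at 60.1, 57.6 and 63.5 FPKM in cKO libraries and 66.9, 63.8 and 63.8 FPKM in WT libraries. Its groups were barely apart, and the log2 change of −0.10 (SE 0.061) was not called.

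Within the pair, Ppp3ca supplied 33.9, 33.9 and 32.6% of the summed FPKM in cKO libraries and 39.3, 40.4 and 40.6% in WT libraries, so the balance lay further towards Ppp3cb in every cKO library. The pair summed to 90.7 ± 3.49 FPKM in cKO and 108.1 ± 1.69 FPKM in WT (SD, n = 3 each). The remaining catalytic gene, Ppp3cc, was at 6.72 ± 0.41 FPKM in cKO and 7.18 ± 0.46 FPKM in WT (limma adjusted p = 0.484). Ppp3r1, the brain's main calcium-binding B subunit, was at 51.4, 51.5 and 56.0 FPKM in cKO libraries and 52.3, 57.0 and 52.2 FPKM in WT libraries, with overlap (limma adjusted p = 0.838). Ppp3r1 shares 462 of its 3228 exon bases with Wdr92.

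Ranked by mean level in cKO, the order was Camkv, Ppp3cb, Camk2b, Camk2g, Ppp3ca, Camkk2, Camk4, Camk2a, Camk1d and Camk2d. In WT it was Camkv, Ppp3cb, Camk2b, Ppp3ca, Camk2g, Camk4, Camkk2, Camk1d, Camk2a and Camk2d. Library ranges of Ppp3cb and Camk2b overlapped in both genotypes. In WT those of Camk4 and Camkk2, and of Camkk2 and Camk1d, overlapped too, so their order there is not beyond the spread. All other neighbours were apart. In cKO Camk1d stood below Camk2a, at 3.63 to 3.98 FPKM for Camk1d and 4.48 to 5.54 FPKM for Camk2a, while in WT it stood above, at 10.5 to 12.9 FPKM for Camk1d and 7.08 to 9.44 FPKM for Camk2a.

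Other genes of the pathway were counted in 8 lists with 79 measured genes, of which 3 were called higher, 10 lower and 66 not called. The shares were 12.7% lower and 3.8% higher, beside 8.59% lower and 7.22% higher over all genes, and whether they differ was not tested. These lists, too, were written with earlier results of these libraries known. The counts moved to 1 higher without cKO 1, cKO 2, cKO 3 or WT 1 and to 8 higher without WT 2, and to 6 lower without cKO 1 or WT 1 and 5 lower without cKO 2. The plot of changes sets 5 of the lists beside the 10 genes.

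**Figure D3:**
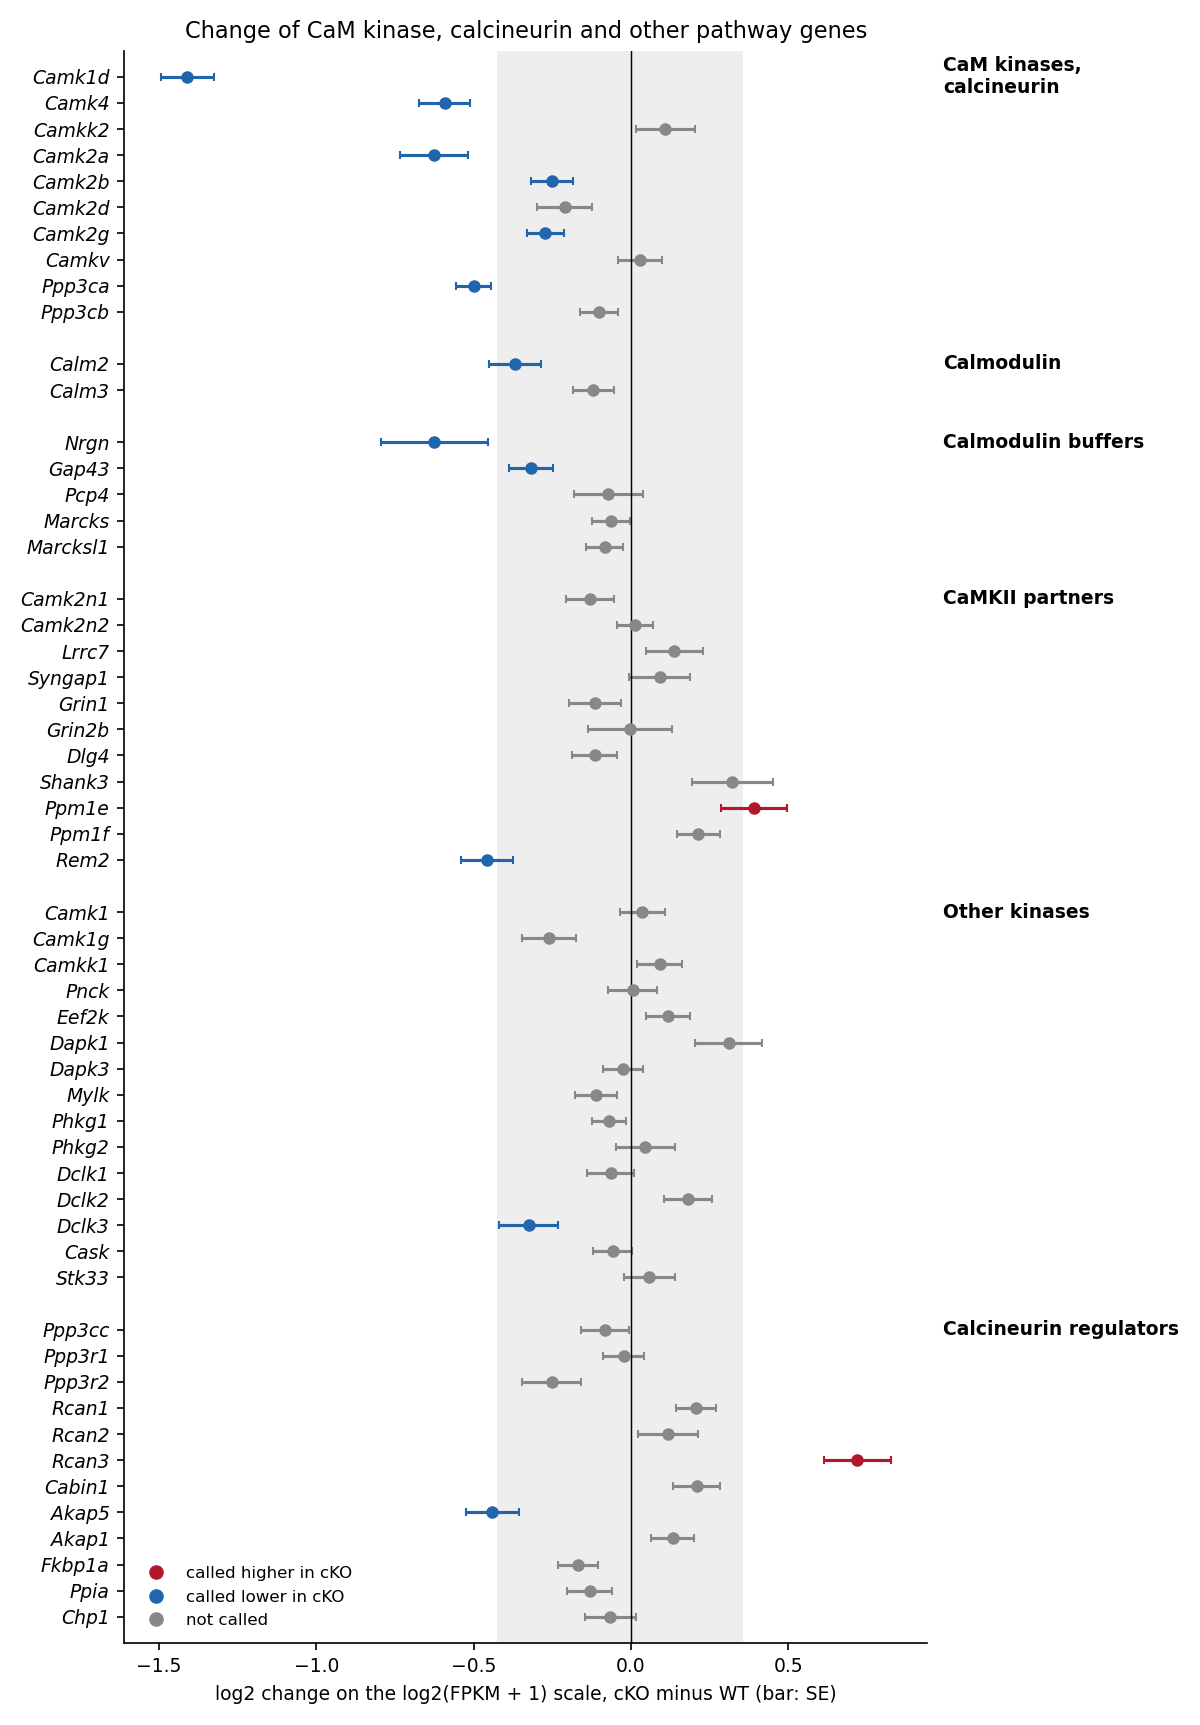
Log2 change on the log2(FPKM + 1) scale (horizontal axis, cKO minus WT) with its SE for the 10 genes and genes of 5 related lists, coloured by call. The grey band spans the 5th to 95th percentiles of all genes, −0.42 to 0.35. Camk1d at −1.41 lies farthest to the left and Rcan3 at 0.72 farthest to the right.

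Calmodulin itself is encoded by several genes with the same protein product, of which Calm2 and Calm3 are described here. Calm2 fell to 443, 469 and 528 FPKM in cKO libraries, against 580, 605 and 674 FPKM in WT libraries (log2 change −0.37, SE 0.082, limma adjusted p = 0.0145). The Calm2 groups did not overlap, but its call was lost without cKO 1 (adjusted p = 0.0578) or cKO 2 (0.0599). Calm3 was at 261, 251 and 286 FPKM in cKO libraries and 292, 289 and 286 FPKM in WT libraries and did not pass (limma adjusted p = 0.23).

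Among 5 measured genes for proteins that buffer calmodulin, 2 were called lower and none higher. Gap43, a growth cone protein that binds calmodulin at low calcium, was at 312, 306 and 349 FPKM in cKO libraries and 392.6, 392.1 and 419 FPKM in WT libraries (log2 change −0.32, SE 0.069, limma adjusted p = 0.0128). Its call was lost without cKO 2 (adjusted p = 0.0696). Nrgn, the dendritic buffer neurogranin, was at 39.9, 25.3 and 42.7 FPKM in cKO libraries and 57.6, 56.5 and 50.2 FPKM in WT libraries (log2 change −0.63, SE 0.17, limma adjusted p = 0.04). Library cKO 2 was the lowest for Nrgn, and the call was lost without WT 1 (adjusted p = 0.135), WT 2 (0.106) or WT 3 (0.122). Without cKO 2 the log2 change of Nrgn was −0.40, and the call was also lost with the replicate block (adjusted p = 0.0733) and with length and GC correction (0.0823). Marcks, Marcksl1 and Pcp4 did not pass.

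Of 11 measured genes for inhibitors, partners and phosphatases of CaMKII, 1 was called lower and 1 higher. Rem2, a small GTPase that inhibits CaMKII, fell to 2.42, 2.16 and 2.47 FPKM in cKO libraries, against 3.74, 3.59 and 3.47 FPKM in WT libraries (log2 change −0.46, SE 0.082, limma adjusted p = 0.00527). Ppm1e, a phosphatase of CaM kinases, rose to 38.0, 37.2 and 37.0 FPKM in cKO libraries, against 29.7, 32.7 and 23.3 FPKM in WT libraries (log2 change 0.39, SE 0.105, limma adjusted p = 0.0324). The Ppm1e call was lost without cKO 1 (adjusted p = 0.103), cKO 2 (0.083), cKO 3 (0.0682) or WT 1 (0.0662), and with sex as a term (0.05), and without WT 3 the log2 change was 0.26. The inhibitor genes Camk2n1, at 30.4 ± 2.31 FPKM in cKO and 33.3 ± 2.33 FPKM in WT, and Camk2n2, at 43.4 ± 1.51 FPKM in cKO and 43.0 ± 0.86 FPKM in WT, did not pass.

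Of 15 measured genes for other calmodulin-dependent and related kinases, the CaMKI genes above among them, 1 fell, none rose and 14 did not pass. The gene that fell was Dclk3, a doublecortin-like kinase, at 1.42, 1.37 and 1.09 FPKM in cKO libraries and 1.73, 2.10 and 1.79 FPKM in WT libraries (log2 change −0.32, SE 0.094, limma adjusted p = 0.0439). Its call was lost without any single library, with adjusted p from 0.0713 without WT 3 to 0.129 without cKO 3, and with length and GC correction (0.0593).

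Among 12 genes for subunits and regulators of calcineurin besides Ppp3ca and Ppp3cb, 1 rose, 1 fell and 10 did not pass. Rcan3, of the family of regulators that bind and inhibit calcineurin, rose to 15.5, 13.1 and 14.5 FPKM in cKO libraries, against 9.31, 8.97 and 6.89 FPKM in WT libraries (log2 change 0.72, SE 0.106, limma adjusted p = 0.0018). Rcan1, whose transcription calcineurin is known to drive, was at 18.2, 18.0 and 19.2 FPKM in cKO libraries and 15.9, 16.4 and 15.3 FPKM in WT libraries. The Rcan1 groups were apart, but it did not pass (limma adjusted p = 0.0503). Akap5, the scaffold that holds calcineurin and protein kinase A at synapses, fell to 2.89, 3.20 and 2.62 FPKM in cKO libraries, against 4.39, 4.34 and 4.15 FPKM in WT libraries (log2 change −0.44, SE 0.084, limma adjusted p = 0.00714).

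Of 14 genes for calcineurin substrates and NFAT factors, 3 fell and none rose. Mef2c, a transcription factor of maturing neurons, fell to 64.6, 63.8 and 66.7 FPKM in cKO libraries, against 89.3, 86.8 and 83.9 FPKM in WT libraries (log2 change −0.41, SE 0.057, limma adjusted p = 0.00141). Ppp1r1b, the phosphatase inhibitor DARPP-32, fell to 3.07, 3.58 and 3.63 FPKM in cKO libraries, against 4.79, 5.45 and 7.40 FPKM in WT libraries (limma adjusted p = 0.0105, and 0.0507 without cKO 1). Another gene on the opposite strand, 1700003D09Rik, shares 460 of 2928 exon bases of Ppp1r1b. Crtc3, a CREB coactivator, fell, at 3.42, 3.50 and 3.29 FPKM in cKO libraries and 4.72, 3.87 and 4.68 FPKM in WT libraries (limma adjusted p = 0.0466), and its call was lost without each library except WT 2, with adjusted p up to 0.157 without WT 1. It was also lost with the replicate block (adjusted p = 0.0596) and with sex as a term (0.0691). None of the 4 NFAT genes passed.

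Of 10 genes for targets of the CaM kinase kinases and CaMKIV, 1 rose and none fell. Creb1, the CREB factor that CaMKIV phosphorylates, rose to 11.9, 12.96 and 12.4 FPKM in cKO libraries, against 8.65, 10.9 and 9.05 FPKM in WT libraries (log2 change 0.35, SE 0.087, limma adjusted p = 0.0224). The Creb1 call was lost without each library except WT 2, with adjusted p from 0.0521 without cKO 1 to 0.0922 without WT 1. Among 9 measured genes for catalytic subunits of other serine and threonine phosphatases, limma called 0. At an unadjusted p under 0.05 was 1 gene, Ppp1ca, at 83.4 FPKM in cKO and 94.2 FPKM in WT (limma adjusted p = 0.0657). Ppp1ca shares 416 of its 2520 exon bases with genes on the opposite strand. In 4 of the 9 genes every cKO library lay below every WT library, as in 18.7% of all genes, and in 0 above. Summed, the 9 genes were at 344.5 to 358.1 FPKM in cKO libraries and 372.4 to 377.4 FPKM in WT libraries. The voom model on recovered reads also called 0, and the replicate block and the length and GC correction called 1 each. The plot of regulators shows Calm3 and 8 of the called genes by library.

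**Figure D4:**
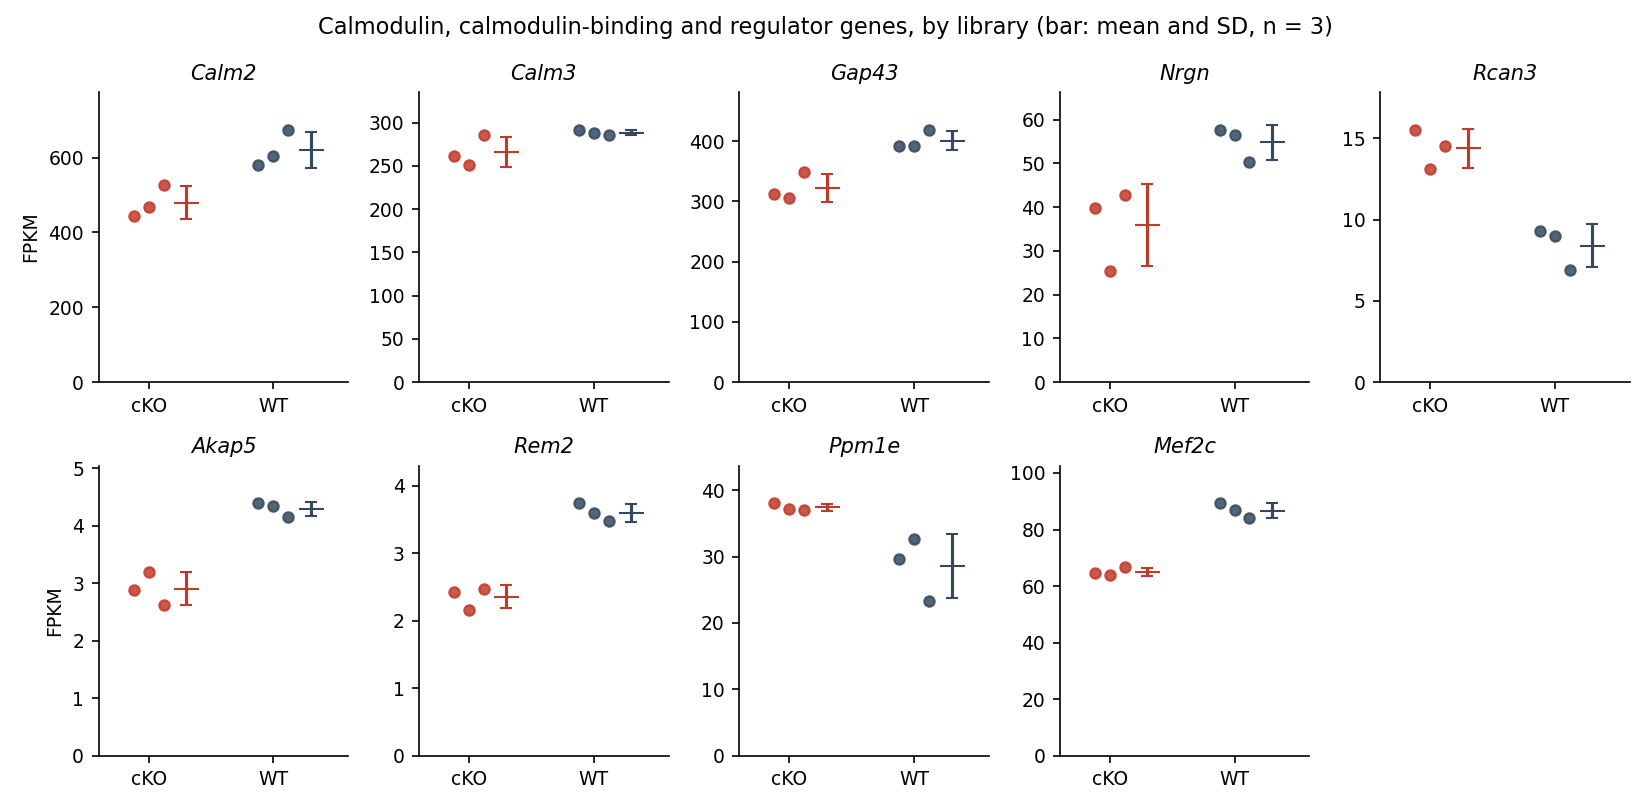
Level in FPKM (vertical axes, from 0) of 9 genes of the pathway outside the described set in the 3 cKO (red, left) and 3 WT (dark, right) libraries, with the mean and SD. Calm3 overlaps between groups, Rcan3 and Ppm1e are higher in every cKO library, and the other 6 genes are lower in every cKO library.

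The profile over the 6 libraries most like that of Camk1d was sought among 8212 other genes with a mean of at least 5 FPKM, by the root mean square difference of log2(FPKM + 1) after subtracting each gene's mean. The closest were Islr2, a leucine-rich repeat membrane protein, at a difference of 0.0689, Cdk5r2, which encodes the Cdk5 activator p39, at 0.0716, Hs6st3, a heparan sulfate sulfotransferase, at 0.126, and Ier5, an immediate early response gene, at 0.127. Islr2 was at 43.6, 46.3 and 42.7 FPKM in cKO libraries and 126, 120 and 101 FPKM in WT libraries. Cdk5r2 was at 9.47, 8.76 and 11.1 FPKM in cKO libraries and 29.5, 27.9 and 25.2 FPKM in WT libraries. These genes were found by their likeness in this contrast and carry no test. The profile of Camkk2, the gene with the highest log2 change of the 10, was closest to Kdm4b (0.0222), Ift172 (0.0245), Gpr173 (0.0262) and Asap2 (0.0265), all with overlapping groups.

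**Figure D5:**
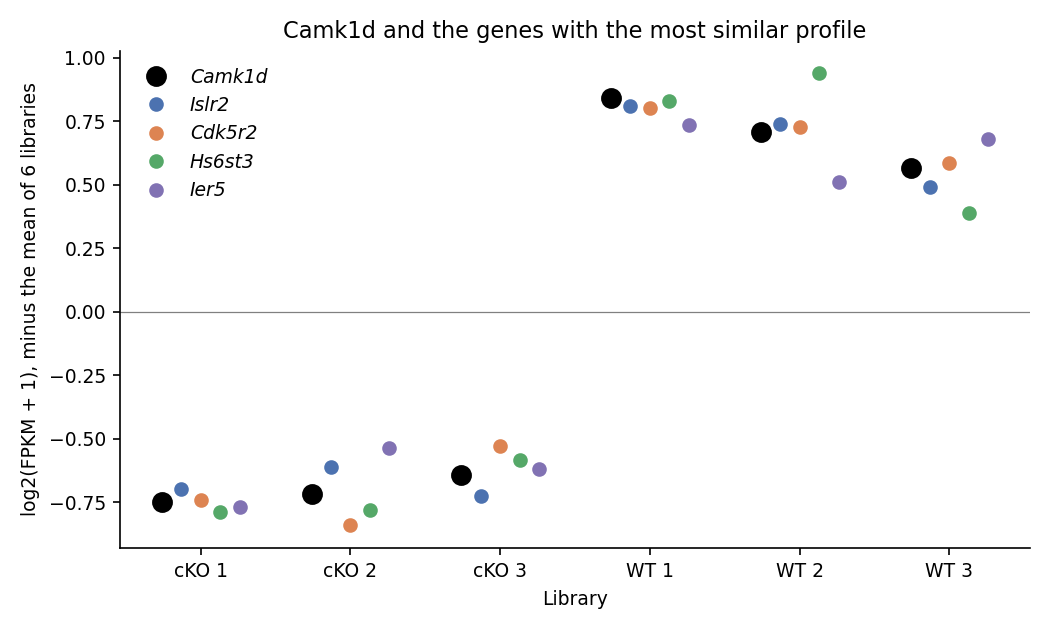
Log2(FPKM + 1) minus the mean of the 6 libraries (vertical axis) for Camk1d (black) and its 4 closest genes in each library, cKO then WT. All 5 genes lie below 0 in the 3 cKO libraries and above 0 in the 3 WT libraries.

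Summed levels of astrocyte and microglia markers were lower in every cKO library than in any WT library, while those of neuron, interneuron, endothelial and red blood cell markers overlapped. Of all genes, 8.59% were called lower and 7.22% higher, and whether marker counts differ from these shares was not tested. Of 12 neuron markers, 2 were called lower (the synaptic gene Snap25 and the nuclear marker Rbfox3) and none higher. The count of higher neuron markers was 0 or 1 with a library left out and 2 with voom on recovered reads, and that of lower ones 2 or 3. Of 9 astrocyte markers, 8 were called lower, with summed levels of 87.8 to 108 FPKM in cKO and 135.5 to 171 FPKM in WT libraries, and 5 to 8 were lower with a library left out. Interneuron markers were called lower in 4 of 11 genes (204 to 221 FPKM in cKO, 207 to 233 FPKM in WT) and microglia markers in 4 of 9 (15.5 to 23.6 FPKM in cKO, 26.8 to 31.8 FPKM in WT). With a library left out, those counts were 1 to 4 and 1 to 5. In 7 of the 11 interneuron markers every cKO library lay below every WT library, as in 18.7% of all genes, and in 0 above. Npy, the most abundant of the 11, weighs most in their sum. It overlapped, at 102 to 111 FPKM in cKO and 72.7 to 108 FPKM in WT libraries. None of 6 endothelial and 3 red blood cell markers was called, but 2 endothelial markers were called higher without WT 2. Striatal markers summed to 25.4 to 27.1 FPKM in cKO and 22.1 to 23.1 FPKM in WT libraries. No measured marker was at 0 in any library. The part of these marker levels in the values of the 10 genes was not tested.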

How the data were processed

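RNA was sequenced from the neocortex of 3 cKO and 3 WT mice, grouped and numbered by their sample titles, whose animal codes differ. Per the file headers, the deposited table holds FPKM values computed by the authors. The submitters' processing notes name, without roles, bcl2fastq 1.8.4, STAR 2.5.4b, featureCounts 1.6.1, R 3.4.1, DESeq2 1.22.1 and build mm10. Annotation, strandedness and any gene filter were not given in the sources used here. Median-of-ratios factors of the deposited values came to 1.003 in each library, so the values were already level between libraries and no scaling was added.

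Differences were fitted with limma 3.58.1 (R 4.3.3; trend, robust) on log2(FPKM + 1) over all 15703 genes, genotype as the only term, with Benjamini-Hochberg adjustment, and checked on simulated data. Alternatives are in the closing section. Sums, shares and figures used Python 3.11.15 with pandas 2.3.3 and matplotlib 3.10.9. GENCODE M21 (mm10) gave coordinates and exon lengths for 15661 genes. With these lengths, 94.7 to 95.7% of low values were whole reads within 0.1, so reads were recovered approximately. In 50-base runs of their transcripts, at most 0.71% were shared with another gene's.

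The 10 genes and all lists were chosen with earlier results of these data known. Named genes are the 10, Tcf4, up to 3 called genes per list (all of a list of 3 or fewer) and the 4 closest profiles of the genes with the highest and lowest log2 change. Pnck, Camk1, Camk1g, Camkk1, Ppp3cc, Ppp3r1, Rcan1, Camk2n1, Camk2n2, Ppp1ca, Snap25, Rbfox3, Tubb3 and Npy were named after their values were seen. A few further genes under the rule enter the list counts and are not reported here.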

Additional observations from a re-analysis of the deposited data

How the results depend on the processing

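The 10 genes were selected on this contrast, so their calls under other settings describe the processing and support nothing further. Camk1d, Camk4, Camk2a and Ppp3ca were called lower under each alternative run: a pseudocount of 0.1, a minimum mean of 1 FPKM, median-of-ratios scaling, no trend, the replicate block, length and GC correction, voom on recovered reads, sex as a term (chosen after seeing the data) and each library left out. Median-of-ratios scaling used a factor of 1.003 in each library, so that run could hardly change a call. Camk2b lost its call without the trend (−0.25), with sex as a term (−0.25) and with single libraries left out (range −0.31 to −0.22), Camk2g with libraries left out (range −0.30 to −0.25), and Camk2d was called with voom (−0.45). The minimum mean of 1 FPKM removed Camk2d. Over all genes, 544 to 1572 were called higher and 830 to 1517 lower with a library left out. In the 8 lists, 1 to 8 genes were then called higher and 5 to 9 lower, and 5 were called higher with length and GC correction and 9 with voom. The cause was not tested. Same-numbered libraries did not pair (correlations of −0.0462, 0.0998 and −0.0476). With the replicate block, 1274 genes were called higher and 1541 lower, the calls of the 10 genes did not change, and those of Nrgn (adjusted p = 0.0733) and Crtc3 (0.0596) were lost. Of the 10 genes, Camk2d had the fewest reads and thus the largest counting error, at about 351 to 409 reads in cKO and 449 to 716 reads in WT libraries. Its WT libraries varied by 19.1% of their mean. Camk4 came next, at 617 to 660 reads in cKO and 890 to 1191 reads in WT libraries. In cKO libraries Camk1d was close to Camk4, at 638 to 686 reads.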
